A study of Mus musculus with 50 samples.

Results

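The 40 genes described here are a list of markers of fibroblasts, extracellular matrix and contractile cells, chosen by symbol with earlier results of these data known. Counts of members beside all genes are therefore descriptive. All 40 were found among the 19455 genes of the deposited table. By role they were 5 fibrillar collagens, 3 genes of beaded filaments and microfibrils, 4 matrix glycoproteins, 3 small leucine-rich proteoglycans and 6 matrix enzymes or inhibitors. The other members were 8 contractile and actin-binding proteins, 5 calcium and phospholipid binding proteins, 4 surface proteins, the intermediate filament gene Vim and the galectin gene Lgals1. RNA was measured by 3′ end poly(A) sequencing in KH2 cells, a mouse embryonic stem cell line of mixed C57BL/6 x 129/Sv background. The knockout groups were Ythdf1_KO, Ythdf2_KO and Ythdf3_KO, each labelled as lacking the gene it is named for, and Triple_KO, labelled as lacking all 3 genes, and they were set against WT cells. The Ythdf genes encode readers of N6-methyladenosine, a base modification of mRNA, and the title of the series asks how far they compensate for each other. All cells had been grown in serum with LIF, plated on gelatin for 48 h and given 5 µM actinomycin D, an inhibitor of transcription, for 0, 4 or 8 h. For each genotype there were 4 libraries without treatment, 2 after 4 h and 4 after 8 h, from replicates A and B, and the labels do not say whether these were separate cultures or how many clones were used.

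Fibroblasts secrete collagens, glycoproteins and proteoglycans that enzymes such as lysyl oxidases then crosslink into a matrix, and contractile fibroblasts also make smooth muscle actin with its partners. Many of the contractile genes are known targets of serum response factor, which binds a sequence called the CArG box. Embryonic stem cells grown in serum can contain cells that have begun to differentiate, and stem cell lines are often kept on fibroblast feeder cells. In bulk samples such as these, fewer cells of a type and less RNA per cell cannot be told apart.

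Since several contractile genes were higher together in Triple_KO cells, the 300 bases around each annotated gene start, 250 before and 50 after, were searched for the CArG box and for GGAATG, a sequence bound by TEAD factors, on both strands. RefSeq promoters of build GRCm38.p6 were given for 26 of the 40 members (29 windows), among them 7 of the 8 contractile genes but not Tagln. Positions are counted from the start that each window uses. For Myl9, Acta2 and Tpm1 that start lies inside the listed span of the gene. The CArG box was in the window of 2 members, both contractile, and in 1.63% of all 32851 promoters. They are shown with the box in capitals, 30 bases each, on the + strand: Myl9 at chr2:156775293-156775322 (box at -161 to -152 from the start used) and Cnn2 at chr10:79988534-79988563 (box at -56 to -47).
Myl9: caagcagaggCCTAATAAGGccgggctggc
Cnn2: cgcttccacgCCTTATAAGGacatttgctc
The letters GGAATG were in the windows of 7 members and in 14.7% of all promoters. The contractile genes Acta2 (chr19:34255502-34255531, - strand, capitals at -146 to -141) and Tpm1 (chr9:67049252-67049281, - strand, capitals at -56 to -51) are shown because both are contractile genes whose values are described in full. Both of these stretches lie within the listed span of the gene. The other 5 members with these letters were Cald1, Anxa1 and Axl, which were not called in Triple_KO cells, and Col3a1 and Col6a2, which were too low to be tested. Searches for TATAAA found 7 members, against 8.32% of all promoters, and for TGANTCA 3, against 7.81%.
Acta2: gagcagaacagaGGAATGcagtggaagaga
Tpm1: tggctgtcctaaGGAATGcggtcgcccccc
These matches describe the letters alone, and binding was not measured.

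Levels are in FPM, the reads of a gene scaled to a common library size, without correction for gene length. A library held 796921 to 2341410 reads, so that 1 read was worth 0.427 to 1.25 FPM and low genes rest on few reads. The targeted genes kept 3′ reads at 0 h: Ythdf1 had 51.1 to 64.9 FPM in Ythdf1_KO libraries and 50.7 to 67.7 FPM in WT libraries, Ythdf2 had 28.9 to 38.9 FPM in Ythdf2_KO libraries and 40.5 to 58.6 FPM in WT libraries, and Ythdf3 had 19.9 to 27.9 FPM in Ythdf3_KO libraries and 13.6 to 33.0 FPM in WT libraries. In Triple_KO libraries the 3 genes had 39.5 to 48.1, 71.8 to 97.3 and 14.7 to 27.0 FPM, so that Ythdf2 lay above WT there. The part of each gene that was deleted is not given in the sources used here, and a 3′ read outside it checks nothing, so these levels neither bear out nor contradict the genotype labels. The 40 members summed to 2022 ± 68.6 FPM in Triple_KO cells, 1653 ± 37.5 FPM in Ythdf1_KO cells, 1304 ± 26.2 FPM in Ythdf2_KO cells and 1256 ± 28.5 FPM in Ythdf3_KO cells at 0 h, against 1478 ± 60.4 FPM in WT cells (SD, n = 4 libraries each). No library of these 4 genotypes overlapped the WT range of 1415 to 1535 FPM in that sum. Sparc, Lgals1, S100a6 and Fn1 weigh most in it, with means over all 50 libraries of 286, 238, 186 and 175 FPM. With TMM scaling, which assumes that most genes do not shift, the Ythdf2_KO sums (1065 to 1118) overlapped those of WT (1094 to 1239). Over all 50 libraries 17 members averaged at least 20 FPM. At the other end, Dcn (decorin) was at 0 in 41 and Lum (lumican) in 44 of the 50 libraries, and Col3a1, Col5a1, Col5a2, Col6a1 and Col6a2 stayed at or under 9.42 FPM in each of the 50 libraries. Decorin and lumican are abundant products of mature fibroblasts, and neither was above 2.29 FPM in any library.

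Markers of other cell types moved with the genotypes, and their part in the results below was not tested. Stem cell markers were present in every genotype: the 10 genes of that list summed to 2579 FPM on average in Triple_KO cells (range 2536 to 2626), 3032 ± 119 FPM in Ythdf1_KO cells, 3167 ± 59.0 FPM in Ythdf2_KO cells, 3214 ± 92.6 FPM in Ythdf3_KO cells and 3107 ± 92.1 FPM in WT cells at 0 h, although Nanog itself averaged 1.505 to 2.58 FPM. Of 9 endoderm and epithelial markers, 7 averaged under 5 FPM, and the list's sum, carried by the keratin genes Krt8 and Krt18, ranged over 247 to 269 FPM in Triple_KO, 163 to 177 in Ythdf1_KO, 158 to 177 in Ythdf2_KO and 58.2 to 71.5 in Ythdf3_KO libraries, against 106 to 122 FPM in WT libraries. The sum of 7 trophectoderm markers ranged over 71.3 to 88.3 FPM in Triple_KO libraries and 16.1 to 30.8 FPM in WT libraries, with 5 of the 7 under 5 FPM on average. Of the 5 tested, 3 were called higher in Triple_KO, 1 in Ythdf1_KO, 1 in Ythdf2_KO and 0 in Ythdf3_KO cells, and 0 lower. The shares of all genes called higher were 14.3%, 1.72%, 3.98% and 2.47% in the same order. Of 14 further fibroblast markers in the table, 10 averaged under 5 FPM, and their sum ranged over 120 to 157 FPM in Triple_KO libraries and 96.3 to 124 FPM in WT libraries. Pdgfra, the receptor that marks many fibroblasts, averaged 0.135 ± 0.270 FPM in Triple_KO cells and 0.175 ± 0.350 FPM in WT cells (SD, n = 4 each). Both means are below 1 read per library, too few to compare. Of the 5 genes of that list that could be tested, 2 were called higher in Triple_KO cells and 0 lower. One of them, Cd248, averaged 7.52 ± 1.11 FPM in Triple_KO cells and 2.48 ± 1.17 FPM in WT cells. Kdr, a receptor gene of mesoderm and endothelium, was at 0 in every 0 h library.

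Differences were tested with limma on log2(FPM + 1) over all genes that reached 5 FPM in at least 2 replicate means, with n = 2 replicates per genotype and time, Benjamini-Hochberg adjustment and a call at adjusted p under 0.05. All adjusted p-values below are limma's. A fold is the log2 change of FPM + 1 turned back into a ratio, so for low genes it differs from the ratio of the FPM means. At 0 h 33 of the 40 members were tested among 8697 genes, and Mmp2, a matrix metalloproteinase, passed that filter through Triple_KO alone. The untested members were Col3a1, Col5a1, Col5a2, Col6a1, Col6a2, Dcn and Lum. The 4 knockout comparisons share the WT libraries.

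In Triple_KO cells 18 members were higher than in WT and 0 were lower, where 21.9% of all genes tested were called, 14.3% higher and 7.65% lower. The median log2 change of the 33 tested members was 0.63, and that of all genes was 0.07. Of the 33 members, 20 had all 4 Triple_KO libraries above all 4 WT libraries, as did 13.2% of all genes, and 0 had all of them below, as did 7.19%. These include Mmp2, and without it the count was 19 of 32 and the median 0.62. With median scaling, which turned the split of all genes to 850 higher and 1003 lower against 1241 higher and 665 lower in FPM, 17 members were higher and 0 lower. In the fit over all times 11 members were higher and 0 lower, where 346 of all genes were higher and 211 lower. Calls lost without replicate A of Triple_KO are named with each gene below.

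The contractile and actin-binding genes gave 7 calls of 8 in Triple_KO cells, all higher. Tpm1, a tropomyosin that lies along actin filaments, had 136, 121, 128 and 141 FPM in Triple_KO libraries, against 64.1, 55.8, 61.2 and 52.4 FPM in WT libraries. Its ranges did not overlap and its fold was 2.23 (log2 change 1.16, SE 0.11, adjusted p = 1.81e-20). Most Tpm1 reads came from a single one of its 3 distinct transcript rows, at 121 ± 5.92 FPM in Triple_KO cells and 55.6 ± 4.37 FPM in WT cells, while a second row gave 10.1 ± 4.02 FPM and 2.51 ± 1.53 FPM, in the same order (SD, n = 4 each). Acta2, smooth muscle actin, had 126, 125, 141 and 131 FPM in Triple_KO libraries and 80.2, 66.8, 77.7 and 68.5 FPM in WT libraries (fold 1.78, log2 change 0.83, SE 0.10, adjusted p = 7.02e-13). Tagln (transgelin, an actin crosslinker) had 85.9, 91.9, 106 and 105 FPM in Triple_KO libraries and 56.1, 45.6, 57.7 and 55.2 FPM in WT libraries (log2 change 0.84, SE 0.12, adjusted p = 3.09e-10). In both genes each Triple_KO library was above each WT library.

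Cnn2, a calponin that binds actin, averaged 85.4 ± 6.07 FPM in Triple_KO cells and 53.0 ± 6.82 FPM in WT cells (SD, n = 4 libraries each), a fold of 1.61. Tpm2, a second tropomyosin, averaged 45.1 ± 4.86 FPM in Triple_KO cells and 29.5 ± 4.34 FPM in WT cells. Myl9, a regulatory myosin light chain whose promoter sequence is given above, averaged 27.9 ± 3.55 FPM in Triple_KO cells and 14.8 ± 2.41 FPM in WT cells. All of these were called, as was Cnn1 (calponin 1, log2 change 0.77, SE 0.26, adjusted p = 0.0208), whose groups overlapped. The call on Cnn1 was lost without either Triple_KO replicate or replicate A of WT, and that on Tpm2 without replicate A of Triple_KO or replicate B of WT. Cald1 (caldesmon) was not called, at 45.4 ± 4.50 FPM in Triple_KO cells and 39.9 ± 2.82 FPM in WT cells.

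Both fibrillar collagens that were tested, which encode the chains of type I collagen, were higher in Triple_KO cells. Col1a1 had 44.2, 36.0, 41.0 and 32.3 FPM in Triple_KO libraries, against 19.1, 13.5, 10.6 and 21.7 FPM in WT libraries. Its lowest Triple_KO library lay above its highest WT library, with a fold of 2.35 (log2 change 1.23, SE 0.19, adjusted p = 2.54e-08). Col1a2 had 12.9, 14.9, 19.4 and 13.0 FPM in Triple_KO libraries and 3.08, 10.1, 9.42 and 7.69 FPM in WT libraries (fold 1.98, adjusted p = 0.00908), and the call was lost without replicate B of Triple_KO or replicate A of WT. Serpinh1, the collagen chaperone and no member, moved the same way (log2 change 0.55, SE 0.09, adjusted p = 1.44e-07), while of the 12 tested genes of the collagen processing list 1 was higher and 3 were lower.

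The matrix glycoproteins with the highest FPM were not called in Triple_KO cells. Fn1 (fibronectin) had 160, 138, 178 and 158 FPM in Triple_KO libraries and 178, 157, 174 and 145 FPM in WT libraries, so that the ranges overlapped. Sparc, a collagen-binding glycoprotein, averaged 284 ± 20.1 FPM in Triple_KO cells and 264 ± 23.4 FPM in WT cells. Thbs1 (thrombospondin 1) was called, at 47.0 ± 6.09 FPM in Triple_KO cells and 29.6 ± 2.68 FPM in WT cells, a fold of 1.56 (adjusted p = 0.00131), although not without replicate A of Triple_KO. Bgn, the proteoglycan biglycan, had a fold of 1.46 (adjusted p = 0.0317), with 36.8, 26.0, 35.6 and 34.2 FPM in Triple_KO libraries and 22.8, 22.0, 23.0 and 21.0 FPM in WT libraries. The call on Bgn was lost with TMM scaling, with median scaling and without any 1 of the 4 replicates, although each Triple_KO library was above each WT library.

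Among matrix enzymes and inhibitors 2 of 6 were called in Triple_KO cells. Timp3, an inhibitor of metalloproteinases, had 23.9, 23.8, 24.3 and 18.8 FPM in Triple_KO libraries and 13.0, 9.30, 7.06 and 10.5 FPM in WT libraries (log2 change 1.13, SE 0.27, adjusted p = 0.000399). Lox, the lysyl oxidase that crosslinks collagen, averaged 32.1 ± 2.17 FPM in Triple_KO cells and 20.7 ± 4.54 FPM in WT cells (fold 1.55, adjusted p = 0.00832), a call that was lost without either Triple_KO replicate or replicate A of WT. Timp2, Mmp2, Loxl1 and Qsox1, a sulfhydryl oxidase, did not pass the test.

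Vim, the intermediate filament vimentin, averaged 119 ± 6.07 FPM in Triple_KO cells and 87.0 ± 10.5 FPM in WT cells (fold 1.37, adjusted p = 5.66e-05). Lgals1, which encodes galectin 1, had 273, 250, 259 and 280 FPM in Triple_KO libraries and 181, 196, 170 and 166 FPM in WT libraries (fold 1.49, SE of log2 0.07, adjusted p = 2.46e-13). Of the calcium and phospholipid binding proteins, the annexin gene Anxa2 was called, at 81.4 ± 7.06 FPM in Triple_KO cells and 54.0 ± 2.40 FPM in WT cells. S100a6 was not, at 169 ± 11.8 FPM in Triple_KO cells and 183 ± 20.1 FPM in WT cells. Of the surface proteins, Ly6a (the antigen Sca-1) averaged 16.8 ± 2.19 FPM in Triple_KO cells and 6.23 ± 3.31 FPM in WT cells, a fold of 2.71 (adjusted p = 0.000665). Thy1, a surface antigen used to mark fibroblasts, was also called (18.9 ± 4.91 FPM in Triple_KO cells, 9.76 ± 2.10 FPM in WT cells, adjusted p = 0.0093), and Cd44 and Axl were not. Both calls were lost in some fits without 1 replicate: Ly6a without replicate B of WT, and Thy1 without that replicate or either replicate of Triple_KO.

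**Figure D1:**
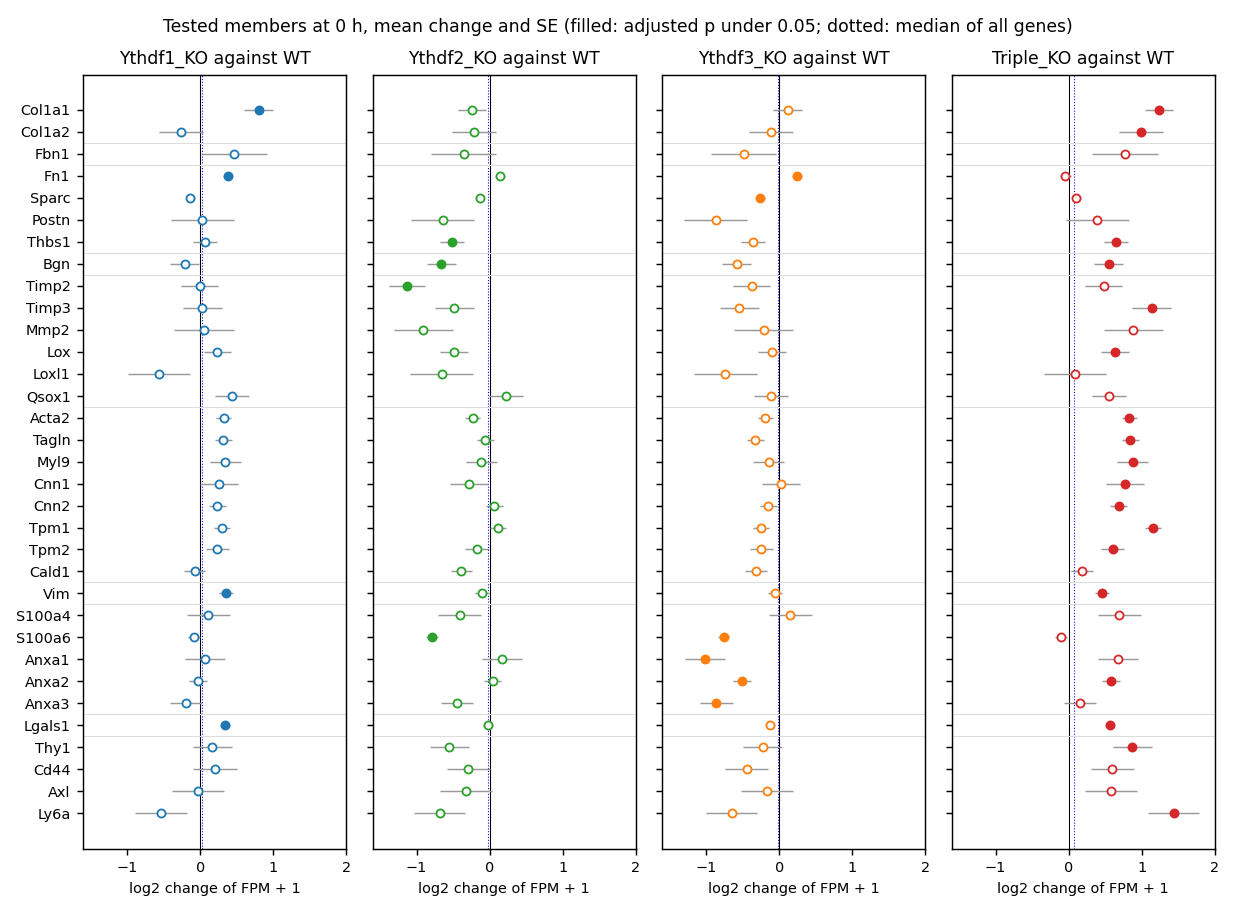
Log2 change of FPM + 1 (x axis) with its SE for the 33 tested members (rows, by role from collagens at the top to surface proteins at the bottom) in each knockout against WT at 0 h; filled points passed the test and the dotted line is the median of all genes. In Triple_KO cells 31 of the 33 points lie right of zero and 18 are filled, while in Ythdf2_KO and Ythdf3_KO cells 27 and 29 points lie left of zero.

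Ythdf1_KO cells had 4 members called higher and 0 lower, where 2.62% of all genes were called, 1.72% higher and 0.897% lower. Col1a1 had 31.6, 20.8, 37.2 and 24.8 FPM in Ythdf1_KO libraries, against the WT values above, which overlap them only between 20.8 and 21.7 FPM (fold 1.74, log2 change 0.80, SE 0.19, adjusted p = 0.00411). Fn1 had 215, 204, 247 and 187 FPM in Ythdf1_KO libraries, and the lowest of these exceeded the highest WT library at 178 FPM (fold 1.30, adjusted p = 7.23e-05). Lgals1 averaged 227 ± 20.1 FPM in Ythdf1_KO cells and 178 ± 13.3 FPM in WT cells (fold 1.27, adjusted p = 0.000222), and Vim averaged 112 ± 13.3 FPM in Ythdf1_KO cells and 87.0 ± 10.5 FPM in WT cells (fold 1.28, adjusted p = 0.0143). Acta2 was not called, yet its 4 Ythdf1_KO libraries at 86.9 to 95.7 FPM lay above the WT libraries at 66.8 to 80.2 FPM. The members' median log2 change was 0.11, against 0.02 for all genes, and 5 members had all Ythdf1_KO libraries above WT, as did 3.73% of all genes, and 0 had all of them below, as did 2.79%. Without replicate B of Ythdf1_KO the call on Col1a1 was lost, and without replicate A of Ythdf1_KO or of WT that on Vim. With no filter Fn1 alone was called, where 57 of all genes were, and in the fit over all times Fn1 and Lgals1 were, where 20 were.

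In Ythdf2_KO cells 0 members were higher and 4 lower, where 8.2% of all genes were called, 3.98% higher and 4.22% lower. S100a6, a small calcium-binding protein, had 106, 101, 93.7 and 120 FPM in Ythdf2_KO libraries, against 179, 193, 203 and 157 FPM in WT libraries. The groups were far apart, with a fold of 0.58 (log2 change -0.79, SE 0.08, adjusted p = 5.98e-18). Timp2, a metalloproteinase inhibitor, had 5.87, 4.19, 4.81 and 8.65 FPM in Ythdf2_KO libraries and 16.7, 11.0, 15.9 and 11.9 FPM in WT libraries (fold 0.46, adjusted p = 0.000388). Bgn averaged 13.7 ± 2.10 FPM in Ythdf2_KO cells and 22.2 ± 0.916 FPM in WT cells (adjusted p = 0.0169), and Thbs1 averaged 20.6 ± 3.74 FPM in Ythdf2_KO cells and 29.6 ± 2.68 FPM in WT cells (adjusted p = 0.0286). The call on Bgn was lost without any 1 of the 4 replicates, with no filter and in the fit over all times. That on Thbs1 was lost with no filter, with TMM and median scaling, in edgeR, in the fit over all times, and without replicate B of Ythdf2_KO or replicate A of WT. The count was 2 with no filter and in the fit over all times, where these settings called 312 and 138 of all genes. The 3 contractile genes with the largest FPM, Acta2, Tpm1 and Tagln, did not pass the test. The members' median log2 change was -0.29, against -0.02 for all genes. In 7 members every Ythdf2_KO library was below every WT library, as in 6.57% of all genes, and in 0 members was it above, as in 4.94%.

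Ythdf3_KO cells had 1 member higher and 5 lower, where 4.46% of all genes were called, 2.47% higher and 1.99% lower. Of the 5 lower members, 4 were calcium and phospholipid binding genes, a group of 5. S100a6 had 103, 107, 104 and 114 FPM in Ythdf3_KO libraries, against 157 to 203 FPM in WT libraries (fold 0.59, log2 change -0.76, SE 0.08, adjusted p = 5.01e-16). The annexin genes encode proteins that bind membrane phospholipids in the presence of calcium. Anxa2 had 36.6, 36.3, 36.8 and 41.3 FPM in Ythdf3_KO libraries and 53.7, 51.6, 53.6 and 57.3 FPM in WT libraries (fold 0.70, adjusted p = 0.00274). Anxa1 averaged 4.44 ± 1.45 FPM in Ythdf3_KO cells and 9.90 ± 2.39 FPM in WT cells (fold 0.50, adjusted p = 0.0111), and Anxa3 averaged 10.1 ± 2.47 FPM in Ythdf3_KO cells and 18.9 ± 0.215 FPM in WT cells (fold 0.55, adjusted p = 0.00665). In each of these 4 genes every Ythdf3_KO library was below every WT library. S100a4, which lies beside S100a6 on chromosome 3 at a distance of 6.849 kb, averaged 8.26 ± 1.93 FPM in Ythdf3_KO cells and 7.35 ± 1.83 FPM in WT cells and was not called.

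Sparc was lower in Ythdf3_KO cells (221 ± 11.0 FPM) than in WT cells (264 ± 23.4 FPM; fold 0.84, adjusted p = 0.00287), and Fn1 was higher (194 ± 11.6 FPM in Ythdf3_KO cells, 164 ± 15.1 FPM in WT cells; fold 1.18, adjusted p = 0.0224). Of the 6 calls, only that on S100a6 held when each replicate of Ythdf3_KO and WT was left out in turn. Anxa2 was lost without replicate A of Ythdf3_KO, and Anxa1 and Anxa3 without its replicate B. Anxa3 was also lost without replicate A of WT, and Anxa1 without replicate B of WT. Fn1 was lost without either Ythdf3_KO replicate or replicate B of WT, and Sparc without replicate A of Ythdf3_KO or replicate B of WT. S100a6 and Anxa2 were called with no filter, where 102 of all genes were, and S100a6 alone in the fit over all times, where 59 were. The members' median log2 change was -0.25, against -0.01 for all genes, and 7 members had every Ythdf3_KO library below WT, as did 4.06% of all genes, while Fn1 alone had every library above, as did 4.17% of all genes.

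**Figure D2:**
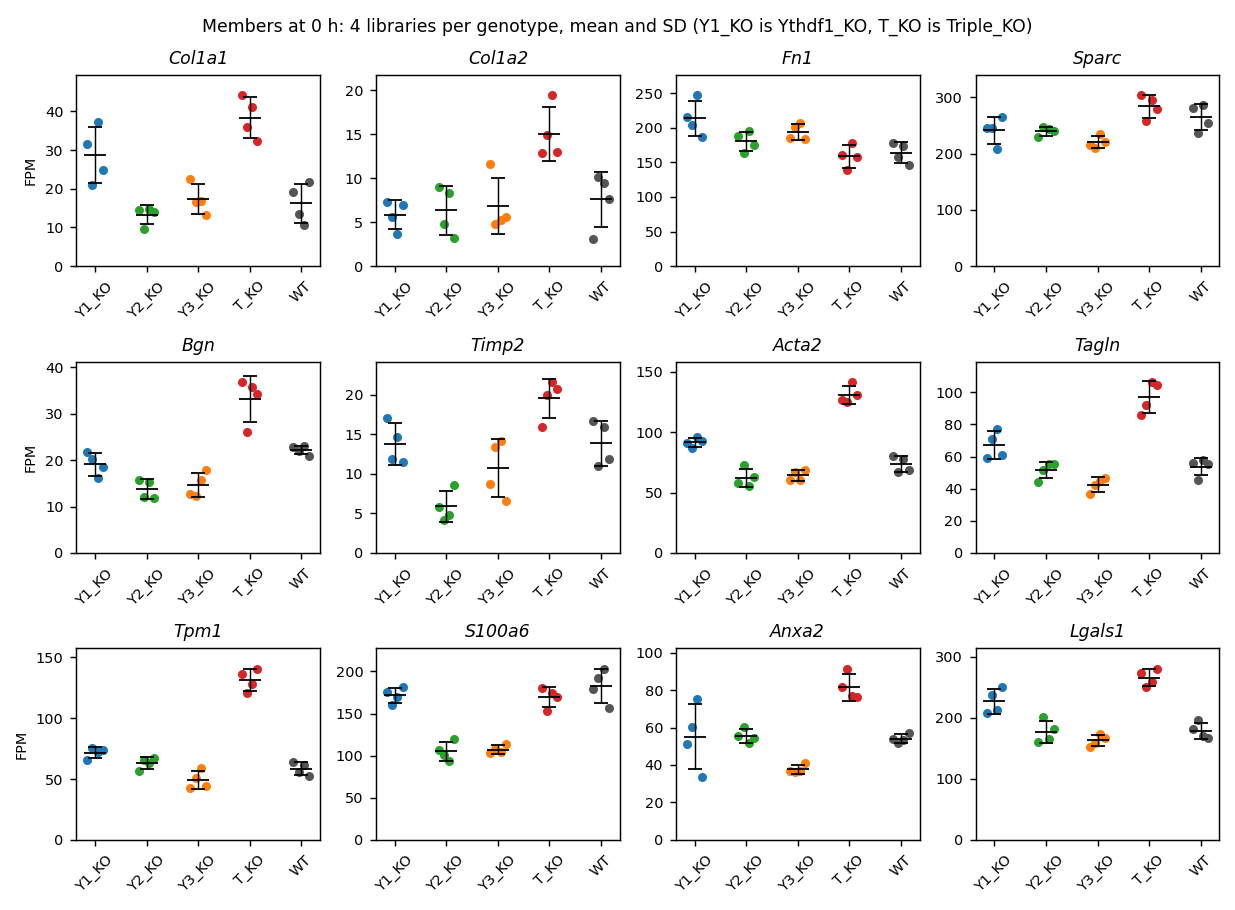
FPM of 12 members at 0 h in each of 4 libraries per genotype (points), with mean and SD (black), for the knockouts and, at the right, WT. Triple_KO points sit above all WT points for Col1a1, Acta2, Tagln, Tpm1, Bgn, Anxa2 and Lgals1, and Ythdf2_KO and Ythdf3_KO points sit below them for S100a6.

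Pathway genes that were no members were counted in lists of their own at 0 h in Triple_KO cells, against the same 14.3% called higher and 7.65% lower. Of the 18 genes of the serum response factor and YAP list, 5 were higher and 0 lower, among them Actg1 (cytoplasmic actin, log2 change 0.32, adjusted p = 3.56e-07) and Ccn2, a matricellular protein (0.53, adjusted p = 6.83e-06). Of the 12 tested integrin and adhesion genes, 3 were higher and 0 lower, with the integrin gene Itgb5 at 53.8 ± 5.38 FPM in Triple_KO cells and 27.9 ± 9.17 FPM in WT cells. Itgb5 was also called higher in Ythdf1_KO (38.3 ± 5.87 FPM) and Ythdf2_KO cells (41.5 ± 7.01 FPM). Of 9 tested genes of the TGF-beta pathway, 2 were higher and 0 lower, among them the receptor gene Tgfbr1 (log2 change 0.72, adjusted p = 0.0462). The basement membrane list was mixed, with 3 of 11 higher and 4 lower, among them the laminin gene Lama1 at 24.5 ± 3.79 FPM in Triple_KO cells and 47.0 ± 5.52 FPM in WT cells. The single knockouts also had a lower Lama1 mean than WT. It was 28.3 ± 5.12 FPM in Ythdf1_KO, 28.1 ± 6.36 FPM in Ythdf2_KO and 28.3 ± 3.44 FPM in Ythdf3_KO cells. Of 5 tested further fibroblast markers, 2 were higher, Cd248 (endosialin, 1.33, adjusted p = 0.00672) and Fbln2 (fibulin 2, 0.57, adjusted p = 0.0148). In Ythdf3_KO cells 6 of the 11 basement membrane genes and 4 of the 18 serum response factor and YAP genes were lower, where 1.99% of all genes were, and 1 of the 18 was higher. Ythdf2_KO cells were similar, with 4 of the 11 and 4 of the 18 lower, where 4.22% of all genes were, and 1 of the 18 higher. In Ythdf1_KO cells 1 of the 11 was higher and 1 lower, and 1 of the 18 was higher and 0 lower.

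To follow the members during actinomycin D treatment, 8 h was compared with 0 h within each genotype over 9078 genes, 34 of them members. The added member, Col5a1, passed the filter through Triple_KO alone. No spike-in was named, and more RNA of the members per cell and a loss of other RNA cannot be told apart. The listed genes held 39.5 to 43.0% of each library in Triple_KO cells and 29.5 to 34.96% in the other genotypes at 8 h, against 42.4 to 45.3% in all genotypes at 0 h. Changes are therefore given beside the median of all genes. That median in WT was -0.81 on the log2 scale in FPM, -0.22 with TMM scaling and 0.24 with median scaling, which called 2634 genes higher and 1137 lower, against 157 higher and 5007 lower in FPM. With median scaling 32 members were higher in Ythdf1_KO, 30 in Ythdf2_KO, 30 in Ythdf3_KO, 26 in Triple_KO and 33 in WT cells, and 0 lower in each. Of all genes this scaling called 2449 higher and 1047 lower in Ythdf1_KO, and 2536 higher and 1061 lower in Ythdf2_KO cells. It called 2496 higher and 1076 lower in Ythdf3_KO, and 1990 higher and 724 lower in Triple_KO cells.

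In WT cells 20 members were higher at 8 h than at 0 h and 0 lower, where 56.9% of all genes were called, 1.73% higher and 55.2% lower. The members' median log2 change was 0.52, that of all genes -0.81, and 33 of 34 members lay above the latter value. Acta2 had 150, 156, 145 and 143 FPM at 8 h and 80.2, 66.8, 77.7 and 68.5 FPM at 0 h in WT cells (fold 2.02, log2 change 1.01, SE 0.11, adjusted p = 2.11e-12). S100a6 averaged 286 ± 16.6 FPM at 8 h and 183 ± 20.1 FPM at 0 h (fold 1.57, adjusted p = 1.46e-08), and the groups did not overlap. S100a4, a related calcium-binding protein, averaged 21.1 ± 5.15 FPM at 8 h and 7.35 ± 1.83 FPM at 0 h, a fold of 2.63 (adjusted p = 0.000207). Fn1, at 144 ± 10.9 FPM at 8 h and 164 ± 15.1 FPM at 0 h, and Vim, at 81.5 ± 9.22 FPM at 8 h and 87.0 ± 10.5 FPM at 0 h, were not called, although edgeR called Fn1 lower. The count was 12 with no filter on low values, where 335 of all genes were higher and 4701 lower. It was lower still without replicate A or replicate B of WT.

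Ythdf1_KO cells had 22 members higher at 8 h and 1 lower, where 55.9% of all genes were called, 1.38% higher and 54.5% lower. The medians were 0.79 for members and -0.77 for all genes. Acta2 had 213, 200, 208 and 213 FPM at 8 h and 91.4, 86.9, 95.7 and 93.0 FPM at 0 h in Ythdf1_KO cells (fold 2.26, adjusted p = 1.14e-14). Lox, the collagen crosslinker, averaged 52.8 ± 3.59 FPM at 8 h and 24.5 ± 4.85 FPM at 0 h (fold 2.13, adjusted p = 0.000112). Fn1 was the lower member, at 155 ± 13.6 FPM at 8 h and 213 ± 25.3 FPM at 0 h (fold 0.73, adjusted p = 2.12e-05), but its log2 change was 0.18 with TMM scaling and 0.54 with median scaling.

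In Ythdf3_KO cells 17 members were higher at 8 h and 1, Fn1, lower, where 60.2% of all genes were called, 0.661% higher and 59.6% lower. The change of Fn1 turned to 0.50 with TMM scaling and 0.87 with median scaling, and its call was lost with no filter and without either Ythdf3_KO replicate. The medians were 0.46 for members and -0.83 for all genes. Bgn had 26.0, 31.3, 29.0 and 39.2 FPM at 8 h and 12.8, 12.3, 15.8 and 17.8 FPM at 0 h in Ythdf3_KO cells (fold 2.06, adjusted p = 0.000316). Postn, the matricellular protein periostin, averaged 7.25 ± 1.83 FPM at 8 h and 1.46 ± 0.451 FPM at 0 h. Its fold in FPM + 1 was 3.32 and rests on few reads (adjusted p = 0.00109). The count of 18 calls was 11 without replicate A of Ythdf3_KO and 12 without replicate B.

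Triple_KO cells had 8 members higher at 8 h and 0 lower, where 29.2% of all genes were called, 3.45% higher and 25.8% lower. The medians were 0.44 for members and -0.39 for all genes. Acta2 had 228, 203, 238 and 200 FPM at 8 h and 126, 125, 141 and 131 FPM at 0 h in Triple_KO cells (fold 1.65, adjusted p = 1.44e-07). Tpm1 averaged 167 ± 29.4 FPM at 8 h and 132 ± 8.78 FPM at 0 h and was not called in the fit without a replicate block. It was called higher with the block, with a pseudocount of 5, with duplicates kept separate, in edgeR, and with TMM and median scaling. The duplicate libraries of each Triple_KO replicate differed at 8 h, with summed member levels of 2926 and 2358 FPM in replicate A and 2848 and 2364 FPM in replicate B. The count was 18 in edgeR on the recovered reads, where 501 of all genes were higher and 3556 lower. It was under 8 without replicate A or replicate B.

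In Ythdf2_KO cells 5 members were higher and 2 lower at 8 h, where 63.2% of all genes were called, 0.595% higher and 62.6% lower. The medians were 0.07 for members and -0.91 for all genes, and all 34 tested members lay above the latter. Acta2 had 83.7, 91.0, 86.9 and 91.8 FPM at 8 h and 57.8, 72.4, 55.6 and 63.3 FPM at 0 h in Ythdf2_KO cells (fold 1.42, adjusted p = 4.7e-05). Tagln, Cnn1, Lgals1 and Timp2 were also higher. Vim had 52.5, 37.3, 51.3 and 52.8 FPM at 8 h and 97.1, 86.2, 74.4 and 68.1 FPM at 0 h (fold 0.60, log2 change -0.74, adjusted p = 4.66e-06), a direction that turned with TMM scaling (0.044) and median scaling (0.44). Fn1, the other lower member, averaged 151 ± 9.43 FPM at 8 h and 180 ± 14.2 FPM at 0 h, and its change also turned with both scalings. The count of 7 was 21 with TMM scaling, where 1298 of all genes were higher and 2400 lower. It was under 7 without replicate A or replicate B.

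**Figure D3:**
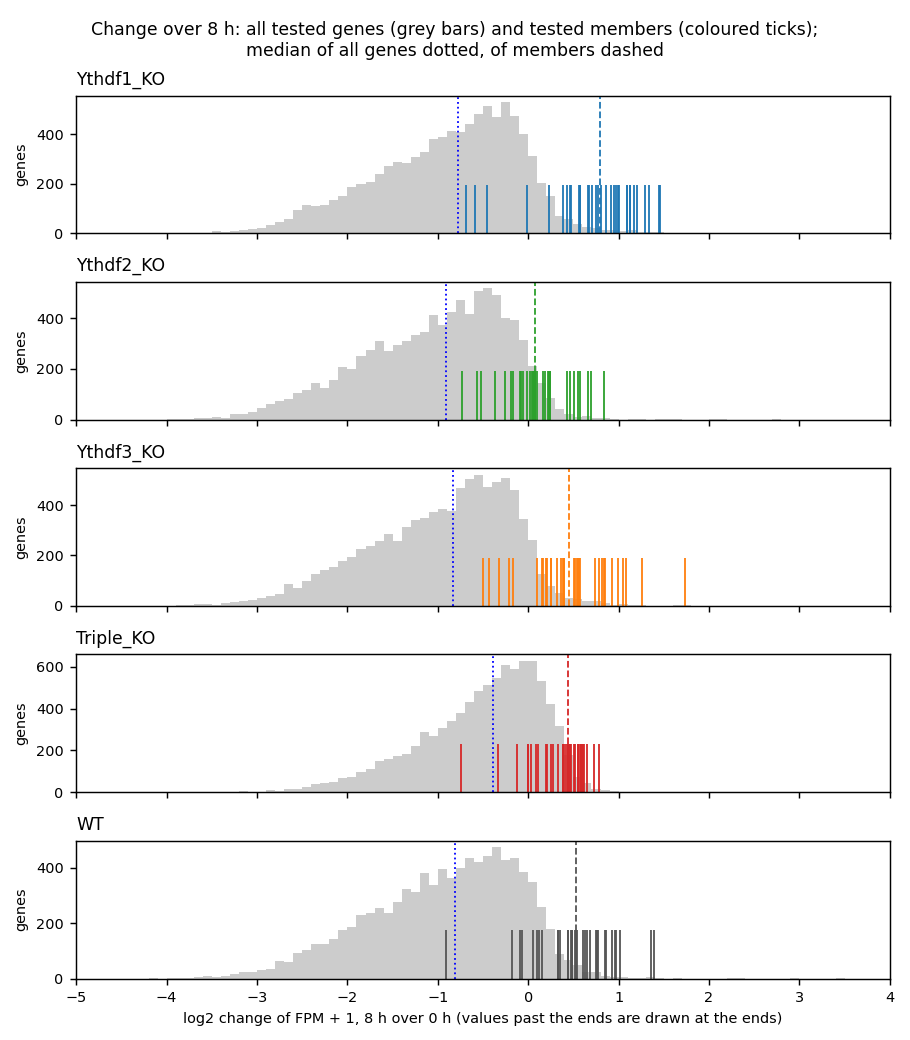
Number of genes (y axis) by log2 change of FPM + 1 from 8 h over 0 h (x axis) for all 9078 genes tested (grey) in each genotype, with the 34 tested members as coloured ticks, the median of all genes dotted and that of members dashed. The members lie right of the bulk of genes in each panel, with medians of 0.79, 0.07, 0.46, 0.44 and 0.52 from top to bottom.

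**Figure D4:**
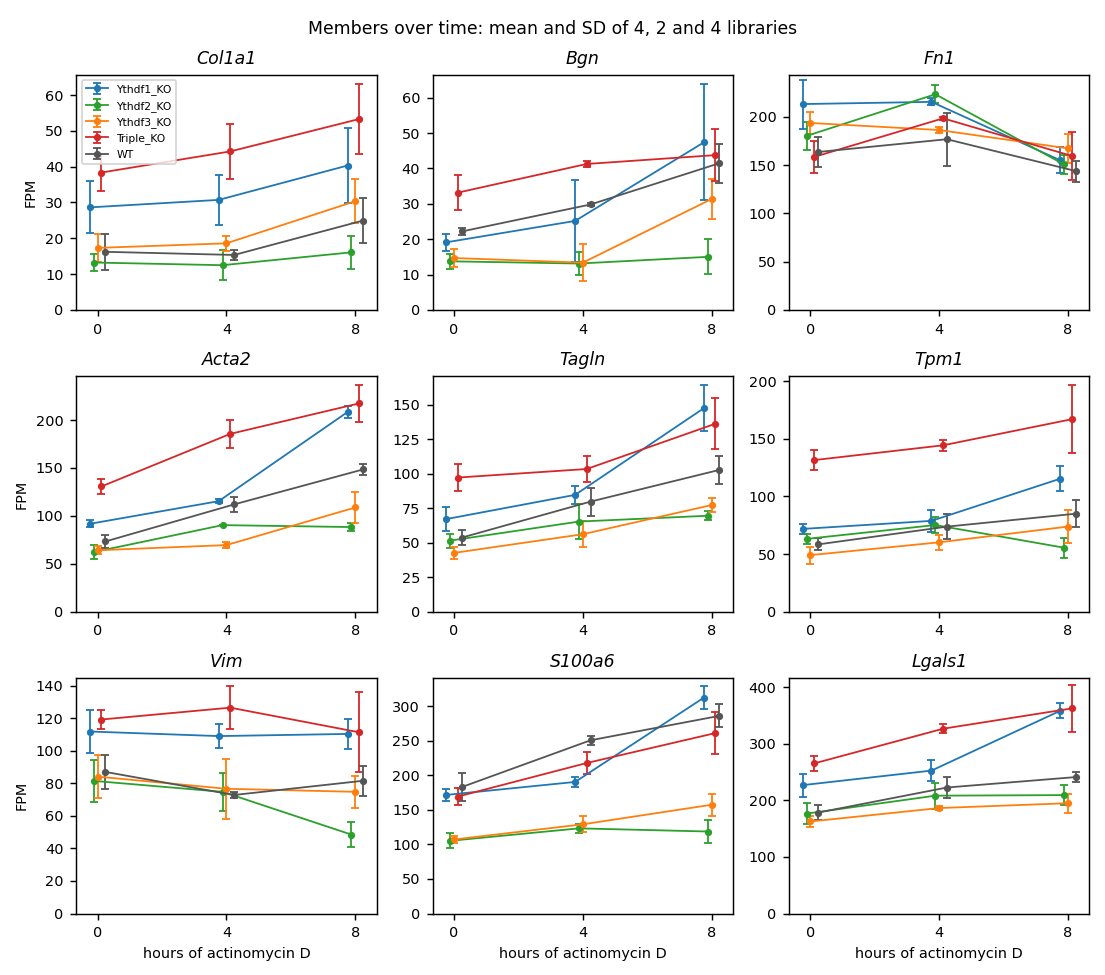
Mean FPM and SD (y axis) of 9 members at 0, 4 and 8 h of actinomycin D (x axis) in the 5 genotypes, from 4, 2 and 4 libraries. Acta2, Tagln and S100a6 rise with time in WT, Ythdf1_KO and Triple_KO cells, while the Ythdf2_KO line for Vim falls to 48.5 FPM at 8 h. Acta2, Tagln and S100a6 were also called higher at 8 h than at 0 h in Ythdf3_KO cells, and Acta2 and Tagln in Ythdf2_KO cells.

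At 4 h 27 of 34 tested members in WT cells, and 25 to 29 in the knockouts, had a mean in FPM above that at 0 h. The share of all genes that did so was not counted, and no comparison with 4 h was tested. The summed level of the 40 members over 0, 4 and 8 h was 1653, 1876 and 2554 FPM in Ythdf1_KO cells, 1304, 1531 and 1356 FPM in Ythdf2_KO cells, 1256, 1418 and 1641 FPM in Ythdf3_KO cells, 2022, 2416 and 2624 FPM in Triple_KO cells and 1478, 1809 and 2030 FPM in WT cells. In Ythdf2_KO cells the mean sum in FPM was lower at 8 h than at 4 h. That direction turned with TMM scaling, where the sums over 0, 4 and 8 h were 1089, 1575 and 1963. At 8 h 18 of the 34 tested members had every Ythdf2_KO library below every WT library, where 7.58% of all genes did, and 0 had every library above, where 1.39% did. They included Acta2, with 83.7 to 91.8 FPM in Ythdf2_KO libraries and 143 to 156 FPM in WT libraries, S100a6, with 96.4 to 136 FPM in Ythdf2_KO libraries and 272 to 310 FPM in WT libraries, and Lox, with 10.8 to 18.9 FPM in Ythdf2_KO libraries and 21.1 to 38.7 FPM in WT libraries. In Triple_KO cells 12 members had every 8 h library above WT, where 27.3% of all genes did, a share not far from that of the members. These include Col5a1, and without it the count was 11 of 33. With TMM scaling 6 of the 34 members were above WT in Triple_KO cells and 3 below, and in Ythdf2_KO cells 13 were below and 1 above. The share of all genes was not counted under TMM scaling, so these counts stand without a background. In Ythdf1_KO cells 7 members had every 8 h library above WT, where 3.49% of all genes did, and 0 below, where 1.82% did. In Ythdf3_KO cells 1, Col5a1, was above, where 1.3% of all genes were, and 7 were below, where 4.88% were.

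The difference of the 8 h changes between each knockout and WT was tested directly as a genotype by time term. In FPM limma called no member in any of the 4 comparisons, where the share of all genes called in FPM was 0.0441% for Ythdf1_KO, 0.176% for Ythdf2_KO, 0.33% for Ythdf3_KO and 7.24% for Triple_KO cells (7.22% higher, 0.022% lower). At an unadjusted p under 0.05 the members numbered 2, 14, 0 and 1 in the same order, and no share of all genes was counted at that threshold. In the same order edgeR called 0, 2, 0 and 1 members, and 4, 32, 74 and 1292 of all genes. The 2 in Ythdf2_KO were S100a6 and Tpm1, and the 1 in Triple_KO was Tagln. With TMM scaling limma called Acta2, Sparc and Tagln lower in Triple_KO, and with median scaling also Lgals1, S100a6 and Tpm1. Of all genes limma called 102 higher and 43 lower there with TMM scaling, and 65 higher and 109 lower with median scaling. With no filter on low values it called Col6a2 higher in Ythdf1_KO, where 5 of all genes were called higher and 1 lower. With duplicate libraries kept separate, Acta2, S100a6 and Tpm1 were called lower in Ythdf2_KO, where 1 of all genes was called higher and 54 lower. The members' median difference in Ythdf2_KO cells was -0.43, against -0.13 for all genes. For S100a6 the 8 h levels were 119 ± 16.7 FPM in Ythdf2_KO cells and 286 ± 16.6 FPM in WT cells, and the 0 h levels were 105 ± 11.1 FPM in Ythdf2_KO cells and 183 ± 20.1 FPM in WT cells. In Triple_KO cells the median difference was -0.12 for members and 0.37 for all genes, and 1 of the 34 members lay above the latter. In Ythdf1_KO cells the medians were 0.22 for members and 0.02 for all genes, and in Ythdf3_KO cells -0.05 and -0.08.

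**Figure D5:**
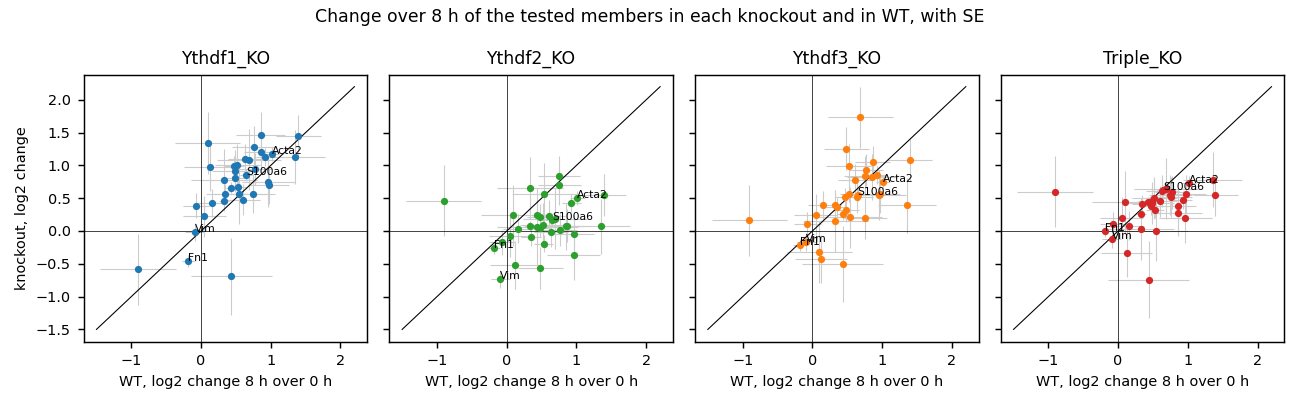
Log2 change of FPM + 1 over 8 h of the 34 tested members in each knockout (y axis) and in WT (x axis), with SE bars and the line of equal change. In the Ythdf2_KO panel 29 members lie below the line and 5 above it, and in the Ythdf1_KO panel 27 lie above it.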

How the data were processed

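The authors deposited a table of FPM values (reads of each RefSeq transcript scaled to a common library size, the same unit as RPM) for 50 libraries. CASAVA 1.8.2, Bowtie2 and build mm10 are named, per the submitters' processing notes; how multi-mapping reads and strand were handled and how the table was filtered is not given in the sources used here. Overlapping genes cannot be told apart without strand. Low values were whole multiples of 1 read in every library (100% of non-zero values within 0.1 read). Of 22338 transcripts, 21725 were named by RefSeq of GRCm38.p6 and 124 by GENCODE M21, and 489 had no name. Identical rows of a gene were counted once (2169 repeats) and distinct rows were summed, which gave 19455 genes.

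Duplicate libraries were averaged on log2(FPM + 1), which understates the changes of low genes. Limma 3.58 in R 4.3 (empirical Bayes, mean-variance trend) was fitted to 10 replicate means at 0 h and to all 30 for time, on genes that reached 5 FPM in 2 or more replicate means, and calls were made at a Benjamini-Hochberg adjusted p under 0.05. P-values measure the spread between replicates A and B, which may be technical: over its degrees of freedom, chi-square was 1.41 (median of 20 pairs of duplicates) and 1.37 (median of 45 pairs of A against B). Sums of levels and SD are over libraries. edgeR 4.0 quasi-likelihood was run on the recovered reads as an alternative, and the scripts were tested on simulated data.

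The members and the 13 gene lists were chosen with earlier results of these data known. All 40 members were counted; 31 with a mean of at least 20 FPM or a call could be named with values, and in the other lists the 2 called genes with the smallest p per comparison were named, apart from genes that are not reported here. Pdgfra and Nanog, which are in other lists, were named after their values were seen.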

Additional observations from a re-analysis of the deposited data

Results flagged for a closer look

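In 9 of 170 groups of 4 libraries (17 members in 10 groups each) a single library stood far from the other 3; chance gives about 1 in 20 groups, and the cause was not tested. At 0 h these were Col1a1 in Ythdf2_KO, where replicate A library 2 had 9.58 FPM, Myl9 in Triple_KO, where replicate B library 2 had 22.6 FPM, and Anxa2 in Ythdf3_KO, where replicate B library 2 had 41.3 FPM. At 8 h the same library of Ythdf3_KO, replicate B library 2, was low for Acta2 at 85.0 FPM and for Tagln at 70.0 FPM. The others at 8 h were Thbs1 in Triple_KO at 57.1 FPM (replicate A library 1), S100a6 in Ythdf1_KO at 337 FPM (replicate A library 1), Vim in Ythdf2_KO at 37.3 FPM (replicate A library 2) and Myl9 in WT at 20.1 FPM (replicate A library 2).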

How the results depend on the processing

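Depth and the number of replicates limit the low members, 7 of which were not tested at 0 h. Of 108 called member values, 107 kept their call with a pseudocount of 5, 107 with edgeR, 108 with duplicates kept separate, 102 with either scaling and 79 with no filter; of 32 calls at 0 h, 16 held in the fit over all times. With no filter the members called were 1 in Ythdf1_KO, 2 in Ythdf2_KO and 2 in Ythdf3_KO at 0 h, 5 in Triple_KO and 12 in WT over 8 h, and 1 in the change of Ythdf1_KO against WT. Of all genes this setting called 57, 312 and 102 at 0 h, 2234 and 5036 over 8 h, and 6 in that change, in the same order. The fit over all times gave 2, 2, 1 and 11 at 0 h in Ythdf1_KO, Ythdf2_KO, Ythdf3_KO and Triple_KO. It called 20, 138, 59 and 557 of all genes in the same order. Over 8 h TMM scaling gave 21 in Ythdf2_KO, where it called 1298 of all genes higher and 2400 lower. It gave 18 in Triple_KO, where it called 1079 of all genes higher and 1210 lower. Median scaling gave 30 in Ythdf2_KO, 30 in Ythdf3_KO, 26 in Triple_KO and 33 in WT. In Triple_KO edgeR gave 18, where it called 501 of all genes higher and 3556 lower. For the change of Triple_KO against WT, TMM scaling gave 3, median scaling 6 and edgeR 1; for Ythdf2_KO, edgeR gave 2 and separate duplicates 3. Over 8 h Fn1 turned with TMM and median scaling, to 0.18 and 0.54 in Ythdf1_KO, 0.53 and 0.92 in Ythdf2_KO, and 0.50 and 0.87 in Ythdf3_KO, and Vim in Ythdf2_KO turned to 0.044 and 0.44. Leaving out a replicate gave 3 to 4 calls in Ythdf1_KO, 2 to 4 in Ythdf2_KO, 3 to 5 in Ythdf3_KO and 12 to 16 in Triple_KO at 0 h. Over 8 h it gave 16 to 18 in Ythdf1_KO, 3 to 4 in Ythdf2_KO, 11 to 12 in Ythdf3_KO, 3 to 3 in Triple_KO and 8 to 10 in WT, and it gave 0 in each comparison of changes; a lone replicate was assumed to vary like the others. The letters A and B did not pair the samples (correlations of deviations -0.022 to 0.030), and with a replicate block all 108 calls held, with 18 members called in Triple_KO at 0 h and 19 and 9 over 8 h in Ythdf3_KO and Triple_KO. Counts from fits without 1 replicate stand here without those of all genes. The cause of these shifts was not tested.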
